A study of Mus musculus with 6 samples.

Results

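Within cluster 5 of the CD11b+ marrow cells, where 50.8% of cells carried a monocyte label, 2529 of 7354 cells were instead labelled Neutrophils, and these 2529 cells of 69776 in all are described here. They were taken as every cell that the deposited metadata placed in cluster 5 at a clustering resolution of 0.1 and that the ImmGen mouse immune reference called Neutrophils. The 3734 cells of the same cluster that the reference called Monocytes served for comparison, along with the neutrophil-labelled cells of clusters 0 and 4 (19214 and 7258 cells). The cluster and the label were both assigned from the genes of these cells, so differences from the monocytes and from the other neutrophils are given as descriptions, without a test.

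The cells came from 2-month-old C57Bl/6 mice. Femur-derived and mandibular-derived marrow was flushed from the bone, the molars having been removed from the mandible, and cells bearing CD11b, an integrin chain of neutrophils, monocytes and macrophages, were kept on magnetic columns and captured for 3' single-cell RNA sequencing. The protocol in the sample labels names femurs and tibiae as the source of the limb marrow and the study's methods name femurs alone, so that the femur libraries may also hold tibial marrow. There were 3 libraries from the femur and 3 from the mandible. Femur library 1 came from a female and the other 5 from males, so that sex was not balanced between the sites. How many mice each library held was not given in the sources used here, and p-values therefore measure the spread between these libraries.

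Neutrophils and monocytes arise in the marrow from a shared progenitor. Neutrophils build granules in steps, the primary granules at the promyelocyte stage, then the secondary and the tertiary granules, and they shut down most other transcription as they mature. Monocytes keep the receptor for colony-stimulating factor 1, Csf1r, and supply the precursors of tissue macrophages and of osteoclasts, the cells that resorb bone.

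The starts of 3 genes that mark the programmes compared below are shown so that the regulatory letters can be read. Each line gives the 250 bases before the RefSeq start on GRCm38.p6, 5′ to 3′ on the strand of the gene, and capitals mark matches on either strand to TTGCNNAA, a core of sites bound by C/EBP factors, or to GAGGAA, a core of sites bound by PU.1. S100a9 encodes a subunit of calprotectin, the most abundant protein of neutrophil cytosol (chr3:90695722-90695971, minus strand). Retnlg encodes a resistin-like protein of mature neutrophils (chr16:48872358-48872607, plus strand). F13a1 encodes the A subunit of coagulation factor XIII, a classical monocyte gene (chr13:37050245-37050494, minus strand).
S100a9: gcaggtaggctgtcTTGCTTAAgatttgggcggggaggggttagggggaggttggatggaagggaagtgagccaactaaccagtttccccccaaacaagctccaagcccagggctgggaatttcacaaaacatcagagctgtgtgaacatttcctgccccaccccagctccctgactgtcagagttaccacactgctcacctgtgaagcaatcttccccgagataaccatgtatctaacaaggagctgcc
Retnlg: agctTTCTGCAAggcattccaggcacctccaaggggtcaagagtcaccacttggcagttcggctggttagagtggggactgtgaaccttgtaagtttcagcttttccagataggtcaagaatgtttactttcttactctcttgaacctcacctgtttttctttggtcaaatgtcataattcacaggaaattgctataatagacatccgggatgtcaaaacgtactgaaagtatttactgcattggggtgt
F13a1: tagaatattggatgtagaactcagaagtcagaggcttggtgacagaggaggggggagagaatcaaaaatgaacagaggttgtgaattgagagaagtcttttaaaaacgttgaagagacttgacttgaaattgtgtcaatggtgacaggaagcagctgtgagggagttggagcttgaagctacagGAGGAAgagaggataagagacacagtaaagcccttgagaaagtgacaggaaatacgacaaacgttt
One C/EBP match lay in each of the S100a9 and Retnlg stretches and 1 PU.1 match in that of F13a1. Of the other 5 stretches searched, that of Ltf held 1 match of each motif and those of Camp, Ms4a6c, Cx3cr1 and Irf8 held none. The PU.1 letters lay in 39 of the 104 stretches found for the 132 neutrophil-high genes described below and in 67 of the 244 found for the 304 monocyte-high genes, and the C/EBP letters in 22 and 18. As only 104 of the 132 had a stretch, the 2 sets were not compared. Of 27025 such stretches across the genome, 9.55% held the C/EBP letters and 23.1% the PU.1 letters on either strand. The match describes these letters and was not tested for binding.

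The neutrophil-labelled cells carried the transcripts of both lineages. S100a8 and S100a9, the calprotectin subunits, stood above the monocytes of the same cluster and below the neutrophils of cluster 0 in every library, with median log2 ratios to monocytes of 3.94 and 4.03. Csf1r had the opposite order, with a median log2 ratio to monocytes of -0.80. Levels are given as CPM, the UMIs (deduplicated transcript molecules) of a gene in all cells of a group in 1 library, scaled to a total of 1000000.

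S100a8 (chr3:90668978-90670035 on mm10) was counted at 63748, 60547 and 101610.3 CPM in the femur libraries and 74577, 90392 and 88962 CPM in the mandible libraries. All 6 values lay above the highest monocyte library, as the monocytes held a median of 4811 CPM (range 2788 to 12934). They lay below the lowest library of cluster 0 neutrophils, which held 125166 to 167917 CPM. S100a9 (chr3:90692632-90695721), its partner, was at 77729.6, 68758 and 109333 CPM in the femur libraries and 87113, 104166 and 87973 CPM in the mandible libraries, against medians of 4862 CPM in monocytes and 159845 CPM in cluster 0. B cells of cluster 6, a cell type that should lack calprotectin, held 1459 to 4200.2 CPM of S100a8, a range that overlapped that of the monocytes. The monocyte level also differed by finer cluster of the deposited metadata, with a median of 3543 CPM in 8 and 15888 CPM in 12, and the part of free transcript in it was not tested.

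Csf1r was counted at 272, 280.3 and 186 CPM in the femur libraries and 256, 172 and 208 CPM in the mandible libraries. The monocytes held a median of 423 CPM (271 to 491), cluster 0 neutrophils 11.4 CPM and B cells 0.652 CPM. Every library of the neutrophil-labelled cells lay above every library of cluster 0, and 4 of the 6 values lay below the lowest monocyte library.

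These cells were deeper than the monocytes in 5 of 6 libraries. Their median UMIs per cell were 13922 and 16887 in femur libraries 2 and 3 and 16970, 14268 and 19048.5 in the mandible libraries, against 8022 to 10257.5 in the monocytes. Femur library 1 stood apart at a median of 2639 UMIs, and 173 of its 316 neutrophil-labelled cells (54.7%) had under 4000 UMIs, against 3.81% to 14.6% in the other libraries. The cluster 0 neutrophils of femur library 1 were shallow more often as well, with 21.0% of cells below 3.6 on the log10 scale of UMIs, against 1.11% to 2.07% in the other libraries. Of the cells under 4000 UMIs in all libraries, 164 lay in the finer cluster 15 described below and 114 in the finer cluster 8. Scrublet, a program that scores each cell by its likeness to simulated pairs of cells, gave the neutrophil-labelled cells a median score of 0.148 to 0.188 by library, the monocytes 0.0514 to 0.0669 and the cluster 0 neutrophils 0.0447 to 0.0727. It marked 24.5% to 55.5% of the neutrophil-labelled cells and 0.518% to 6.03% of the monocytes as likely doublets, with the highest share of both in femur library 3, and 9.11% to 27.9% of the cluster 0 neutrophils. Femur library 3 had the lowest score threshold, 0.162 against 0.199 to 0.275 in the other libraries. It also held the most cells, 22797 against 7763 to 11611 in the others. Of all its cells 17.4% were marked, against 4.97% to 7.79%. The same library had the highest S100a8 level among the monocytes. The part that droplets holding 2 cells had in the mixed profile was not tested, and the main lists are given below also without the marked cells.

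**Figure D1:**
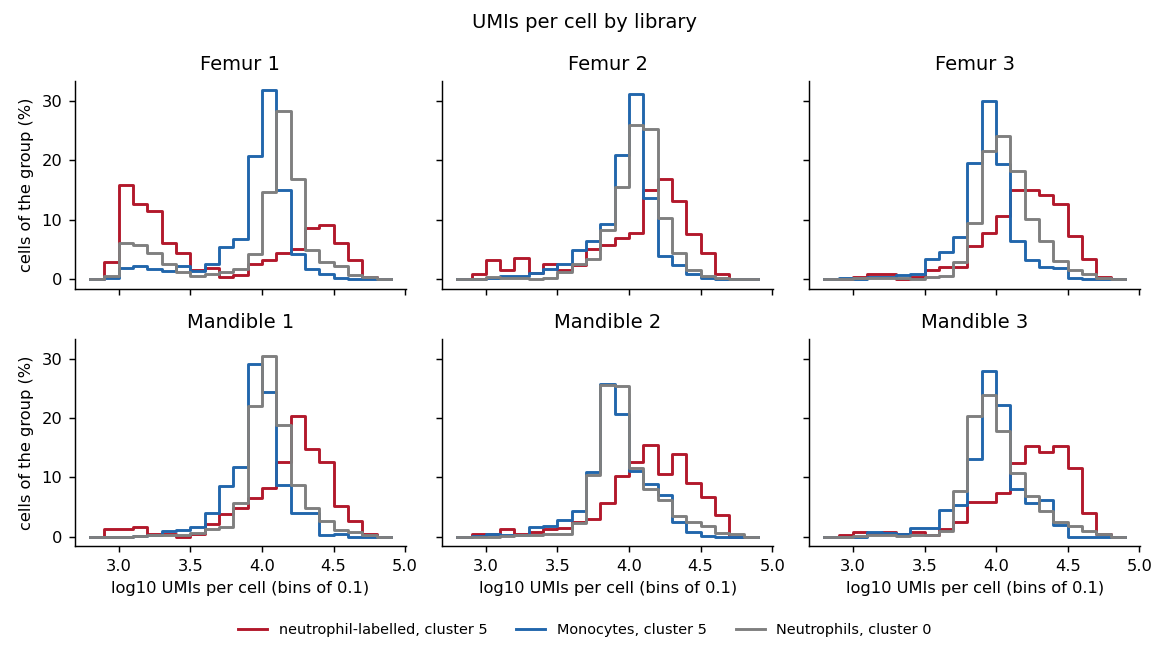
Distribution of UMIs per cell in each library, on a log10 axis in bins of 0.1, as the percent of cells of the neutrophil-labelled cells of cluster 5 (red), the monocytes of cluster 5 (blue) and the neutrophils of cluster 0 (grey). In 5 libraries the red curve peaks to the right of the blue and grey curves, and in Femur 1 a further red peak lies at log10 values of 3.0 to 3.3.

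The genes of secondary and later granules stood well above the monocytes, and those of primary granules were split. Of the 15 secondary granule genes measured, 13 were higher in the neutrophil-labelled cells than in monocytes in 6 of 6 libraries and 1 was lower in all, with a median log2 ratio of 1.98. Over all 9864 genes compared, 18.1% were higher in 6 of 6 libraries, 54.8% were lower, and the median log2 ratio was -0.39. Of the 9 tertiary granule genes 8 were higher (median 3.02), and of the 22 genes of mature neutrophils 20 were higher (median 3.76). The exception that was lower in all was Cyba, an oxidase subunit, in the secondary list and Ccl6, a chemokine, in the mature list. The 11 primary granule genes split, with 5 higher and 4 lower in all libraries and a median of 0.40.

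Among secondary granule genes, Ngp, which encodes neutrophilic granule protein, was at 16124, 10633 and 18742 CPM in the femur libraries and 14402, 15905 and 16075 CPM in the mandible libraries, and its log2 ratio to monocytes was 3.99. Camp, the cathelicidin precursor of an antimicrobial peptide, was at 11762, 10359 and 19071 CPM in the femur libraries and 12239.5, 15579 and 16288 CPM in the mandible libraries (ratio 3.82). Ltf, the iron-binding lactoferrin, was at 6409, 3764 and 6099 CPM in the femur libraries and 5507, 5338 and 5215 CPM in the mandible libraries (ratio 4.05). All 3 lay below every cluster 0 library, whose medians were 34840.4, 30654 and 13062 CPM. Lcn2, the siderophore-binding lipocalin, had a log2 ratio of 3.85 to monocytes, and Chil3, a chitinase-like lectin that monocytes also make, 1.04.

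Set against cluster 0 alone, the mature and tertiary lists lay closer to its level than the secondary list. The median log2 ratios were 0.37 for the mature list, -0.34 for the tertiary and -0.83 for the secondary, beside 0.54 for all genes. Against all neutrophils of clusters 0 to 4 the medians were -0.59, -0.58 and -0.54, beside 0.38 for all genes, and 19 of the 22 mature genes were lower and 0 higher in 6 of 6 libraries, against 12.4% and 63.3% of all genes. Retnlg was at 3325, 4887 and 4717 CPM in the femur libraries and 6595, 6493 and 5833 CPM in the mandible libraries, within the range of cluster 0 in 4 of the 6 libraries (2767 to 6084 CPM) and above it in the other 2. Mmp9, a gelatinase of tertiary granules, had 935, 922 and 718 CPM in the femur libraries and 1216, 969 and 979 CPM in the mandible libraries and a log2 ratio of 4.38 to monocytes. Mmp8, a collagenase, had a median of 1464 CPM against 165 CPM in monocytes. Lyz2, the lysozyme that both lineages store, was the exception of that list, at a median of 8846 CPM against 17356 CPM in monocytes. Csf3r, the receptor for granulocyte colony-stimulating factor, was at 887, 937 and 617 CPM in the femur libraries and 587, 454 and 592 CPM in the mandible libraries, above the monocyte median of 195 CPM and also above the cluster 0 median of 416 CPM.

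The primary granule genes lay far below the level of cluster 4. Prtn3, a serine protease of primary granules, was at 21.7, 33.6 and 39.0 CPM in the femur libraries and 11.8, 72.5 and 42.3 CPM in the mandible libraries, against medians of 75.3 CPM in monocytes and 408 CPM in cluster 4. Mpo, myeloperoxidase, was at 10.9, 10.8 and 9.14 CPM in the femur libraries and 1.96, 18.4 and 9.70 CPM in the mandible libraries. Relative to cluster 4 the primary granule list had a median log2 ratio of -2.30, and the S and G2M phase lists had -1.82 and -2.25. Relative to cluster 0 the medians were positive, at 0.96 for the primary granule list, 2.07 for the S phase list (17 of 17 genes higher in 6 of 6 libraries) and 1.25 for the G2M phase list (17 of 20 higher), beside 0.54 for all genes. Over all 9229 genes compared with cluster 0, 72.3% were higher in 6 of 6 libraries. Of the 12 primary granule genes 9 were lower than in cluster 4 in 6 of 6 libraries and 3 were higher, whereas over all 9465 genes 20.6% were lower and 58.7% higher, with a median of 0.40. Cebpe, the C/EBP factor of secondary granule genes, had a median of 172 CPM, between 22.1 CPM in monocytes and 351 CPM in cluster 0. Spi1, which encodes PU.1, was near the monocyte level (522 and 532 CPM). It was also near the level of the neutrophils of clusters 0 to 4, with a median log2 ratio of 0.098.

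The monocyte genes were present at a reduced share of the transcripts. Of 24 genes of monocyte identity, 0 were higher and 23 were lower than in monocytes in 6 of 6 libraries, with a median log2 ratio of -1.24. Set against cluster 0, 22 of the 24 were higher in 6 of 6 libraries and 0 were lower, with a median log2 ratio of 5.10. Over all 9229 genes compared with cluster 0, 72.3% were higher and 10.6% lower, and the median was 0.54. Of 11 monocyte transcription factor genes 8 were lower than in monocytes (median -1.02), as were 6 of the 7 MHC class II genes measured (median -1.34), whose products present antigen. Over all genes compared with monocytes 54.8% were lower and the median was -0.39.

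Ccr2, the chemokine receptor by which monocytes leave the marrow, was at 286, 494 and 269 CPM in the femur libraries and 389, 308 and 378 CPM in the mandible libraries, against a median of 1274 CPM in monocytes and 3.29 CPM in cluster 0. F13a1 was at 211, 438 and 247 CPM in the femur libraries and 367, 505 and 458 CPM in the mandible libraries, against 1460.5 and 2.71 CPM. Both genes lay below every monocyte library and above every cluster 0 library. Fn1, which encodes fibronectin, had a median of 340.2 CPM against 1329 CPM in monocytes, and Irf8, a factor of the monocyte and dendritic lineages, 106 against 259 CPM. Klf4, a factor of monocyte differentiation, was at 229, 208 and 136 CPM in the femur libraries and 265, 199 and 153 CPM in the mandible libraries, and cluster 0 held 1.85 CPM. Ly6c2, a surface protein of classical monocytes, was at a median of 897 CPM, against 912 CPM in cluster 0 and 1813 CPM in monocytes.

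Of the 10 osteoclast genes measured 2 were higher and 6 lower than in monocytes in 6 of 6 libraries (median log2 ratio -0.35), close to the shares over all genes of 18.1% and 54.8% and the median of -0.39. Tnfrsf11a, which encodes RANK, the receptor that starts osteoclast formation, was at 12.5, 11.8 and 9.21 CPM in the femur libraries and 8.58, 10.9 and 13.1 CPM in the mandible libraries, below the monocyte median of 25.3 CPM. Apoe, a lipid carrier of macrophages and of patrolling monocytes, was at 977, 1316 and 866 CPM in the femur libraries and 1270.4, 514 and 882 CPM in the mandible libraries, and the cluster 0 median was 15.7 CPM. Nr4a1, a nuclear receptor that patrolling monocytes need, was at 245, 192 and 98.1 CPM in the femur libraries and 256, 138 and 136 CPM in the mandible libraries. The Nr4a1 values overlapped those of monocytes (127 to 297 CPM).

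**Figure D2:**
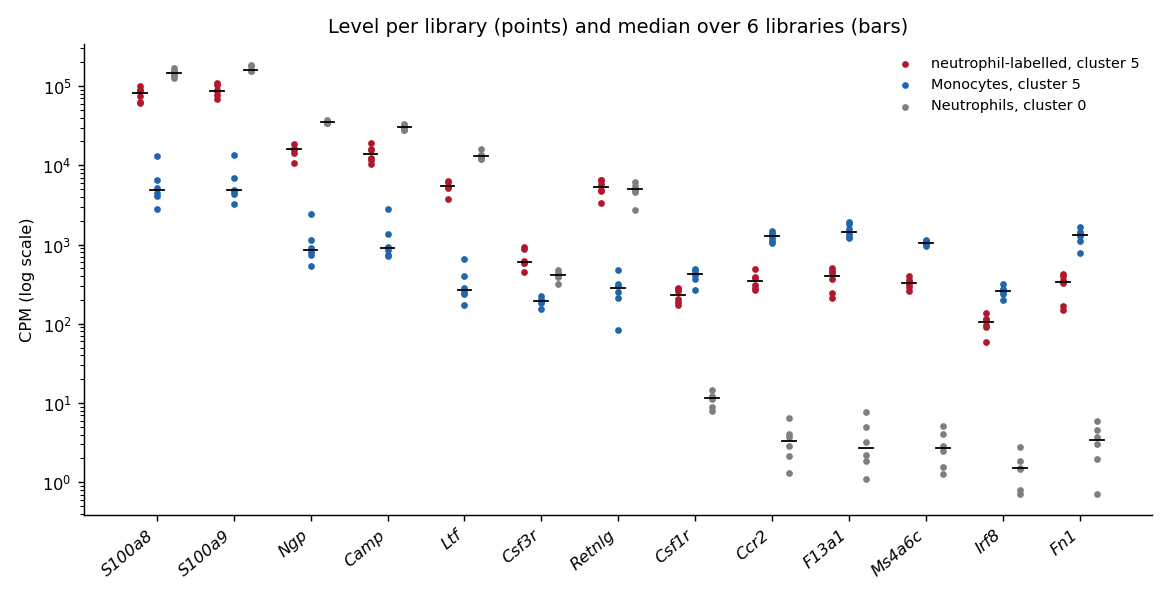
CPM on a log axis of 7 neutrophil genes and 6 monocyte genes in each of 6 libraries (points), with the median (bars), in the neutrophil-labelled cells of cluster 5 (red), the monocytes of cluster 5 (blue) and the neutrophils of cluster 0 (grey). For all genes drawn except Csf3r and Retnlg the red median lies between the blue and the grey median, nearer to grey for neutrophil genes and nearer to blue for monocyte genes.

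The genes with the most extreme ratios to monocytes, among those at 50 CPM or more in either group, are named next. The 10 highest were Mgll, Stfa2l1, Scrg1, Mgam, Acod1, Cxcr2, Retnlg, Mmp9, Cstdc4 and Syne1, with median log2 ratios of 4.33 to 5.08. Cxcr2, the receptor by which neutrophils leave the marrow, had a mean of 388 CPM against 16.6 CPM in monocytes. Mgll, a lipase of monoacylglycerols, led with 104 against 2.33 CPM. The 10 lowest were Cxcl10, Fn1, Itga1, S100a10, F13a1, Lgals1, Ms4a4c, Crip1, Vcan and Gm17268, with median log2 ratios of -2.22 to -1.93. Cxcl10, an interferon-induced chemokine, had 10.1 CPM against 52.6 CPM in monocytes.

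Few genes exceeded both lineages. Of 5589 genes at a mean of 20 CPM or more over the libraries, 4 were over 2-fold above the monocytes and above each of the neutrophil clusters 0 to 4 in all 6 libraries, namely Mrc1, Mertk, Fcna and Igf1. Mrc1, the macrophage mannose receptor, had a median of 55.7 CPM, and Mertk, the receptor for dying cells, 22.3 CPM. The macrophage-labelled cells of cluster 5 held more of all 4, with 2480 CPM of Mrc1 and 1233 CPM of Mertk. Of the 13 macrophage genes measured, 9 were higher than in monocytes in 6 of 6 libraries (median log2 ratio 1.72). C1qa, a complement subunit of resident macrophages, was at 188, 107 and 75.1 CPM in the femur libraries and 111, 54.0 and 95.02 CPM in the mandible libraries, against a monocyte median of 35.6 CPM.

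A pair of gene sets was drawn up to place the cells between the lineages, namely 132 genes at least 8-fold higher in the neutrophils of clusters 0 to 4 than in monocytes of cluster 5 at 50 CPM or more, and 304 genes at least 8-fold higher in those monocytes. The sets were chosen on the same libraries and serve as a scale only. The neutrophil-labelled cells of cluster 5 held a median of 69.2% of the neutrophil level over the 132 genes, with quartiles of 65.2% and 72.4%, and a median of 42.0% of the monocyte level over the 304 genes, with quartiles of 36% and 54.3%. By library, the summed neutrophil-high level was 52.8% to 67.1% of that in neutrophils and the summed monocyte-high level 36.8% to 48.7% of that in monocytes. Femur library 2 had the lowest neutrophil and the highest monocyte share, and femur library 3 the reverse.

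Single cells varied widely in the share of both gene sets. The share of a cell's UMIs in neutrophil-high genes had a median of 21.4%, with 2.19% and 41.3% as the 5th and the 95th percentile, whereas the monocytes had a median of 0.590% and the cluster 0 neutrophils 46.8%. The neutrophils of cluster 1 had 23.8% (5th to 95th percentile 7.22% to 39.8%), which overlapped the neutrophil-labelled cells over most of their range. The share in monocyte-high genes had a median of 4.14%, against 9.37% in monocytes, 0.312% in cluster 0 and 0.656% in cluster 1. B cells of cluster 6 had 4.38% for the monocyte-high genes and 0.932% for the neutrophil-high genes. A monocyte-high share like that of the neutrophil-labelled cells was thus not particular to cells with monocyte transcripts.

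**Figure D3:**
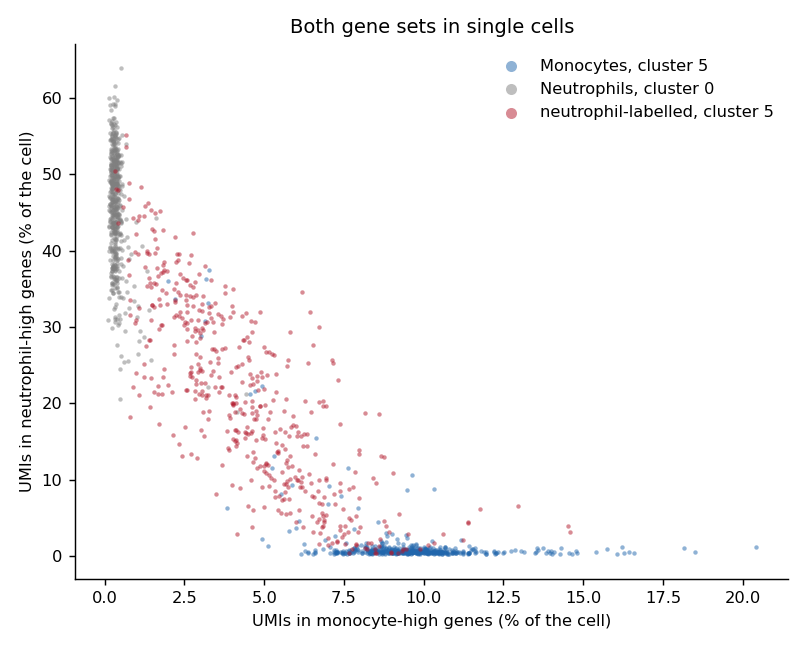
Each point is 1 cell of a fixed subset of the neutrophil-labelled cells of cluster 5 (red), the monocytes of cluster 5 (blue) and the neutrophils of cluster 0 (grey), by the percent of its UMIs in the monocyte-high genes (x) and in the neutrophil-high genes (y). The red points form a band that runs from the grey cells at the upper left to the blue cells at the lower right.

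Counted as molecules, the monocyte-high genes of the neutrophil-labelled cells lay below those of the monocytes over all cells. Means per cell were 667 UMIs (median over libraries, range 438.5 to 732.5) against 945 (784 to 998), without overlap. Within each of the finer clusters 8, 12, 15 and 17 the ranges overlapped. The metadata give a finer clustering, at a resolution of 0.5, and the neutrophil-labelled cells fell mainly in its clusters 8 (1066 cells), 12 (996) and 15 (366), with 49 each in 16 and 17. In the finer cluster 8 they held a mean of 885 UMIs of monocyte-high genes per cell (median over libraries, range 559.7 to 999.6), and the monocytes of that cluster held 989 (775 to 1128). In the finer cluster 12 the values were 577 and 494 UMIs, and in 17 they were 1199 and 1435 UMIs. In the finer cluster 15 the neutrophil-labelled cells had 185 UMIs (100.97 to 274) and its 22 monocytes 189 (171 and 207 in the 2 libraries with at least 10 of them), and neither overlapped the 510.0 UMIs (399 to 681) of its 319 macrophages. The neutrophil-high genes did not overlap between neutrophil-labelled cells and monocytes, at 3354 against 116 UMIs in 8, 6028 against 286 in 12 and 3547 against 332 in 17. These genes were chosen as low in the monocytes and the cells by their Neutrophils label, so the gap tests nothing. The total per cell was 16561 against 10217 UMIs in 8 and 20702 against 6253 in 12. For scale, a neutrophil of clusters 0 to 4 held a mean of 4213 UMIs of neutrophil-high genes (3168 to 4594 by library), 5363 in cluster 0, 9886 in cluster 4 and 1516 in cluster 1. The values for 17 rest on 2 libraries with at least 10 neutrophil-labelled cells.

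**Figure D4:**
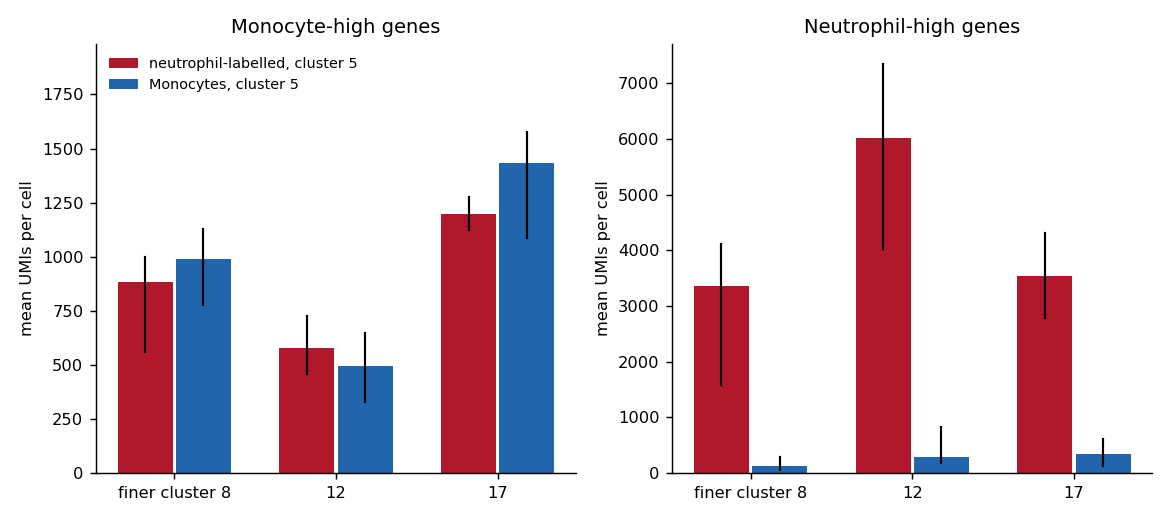
Mean UMIs per cell of the monocyte-high genes (left) and the neutrophil-high genes (right) in the neutrophil-labelled cells (red) and the monocytes (blue) of cluster 5, within the finer clusters 8, 12 and 17. Bars are medians over the libraries with at least 10 cells and lines run from the lowest to the highest library. Red and blue ranges overlap on the left in all 3 finer clusters and stay apart on the right. The genes on the right were chosen as low in the monocytes.

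The finer clusters separated the neutrophil-labelled cells by the monocyte or macrophage genes they carried. In 8, Ccr2 had a median of 724 CPM and Ly6c2 1319 CPM. In 12, Ccr2 was at 125 CPM (61.5 to 152 by library, against 561 to 883 in 8). Cx3cr1, the fractalkine receptor of patrolling monocytes, overlapped between 12 and 8, at 208 CPM (130.4 to 311) and 158 CPM (93.2 to 217). In 15, C1qa reached 1005 CPM and Vcam1, an adhesion molecule of marrow macrophages, 1336 CPM, against 54.0 and 8.98 CPM in 8. In 17, Mki67, a marker of cycling cells, stood at 519 CPM, against 62.6 CPM in 8. The finer clusters were made from these genes, so the values describe them and test nothing. Finer cluster 8 held 32.6% to 46.6% of the neutrophil-labelled cells of a library and 12 held 29.7% to 47.0%. Finer cluster 15 held 33.5% in femur library 1, 17.5% in femur library 2 and 9.27% to 12.6% in the other 4.

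Detection in single cells was compared after every cell was thinned to 2000 UMIs, which left out 224 of the neutrophil-labelled cells as too shallow. A UMI of Csf1r was then found in a median of 36.7% of them, 56.8% of monocytes, 1.97% of cluster 0 neutrophils and 0.189% of B cells. Before thinning, the share in the neutrophil-labelled cells was 81.7%. Camp was found in 78.4% of the neutrophil-labelled cells, but also in 39.8% of monocytes and 53.5% of B cells. No expression in monocytes is read from a share below that of B cells, and the part of free transcript in it was not tested. Ly6g, a surface protein of neutrophils, was found in 38.2% of the neutrophil-labelled cells, in 2.36% of monocytes, 71.9% of cluster 0 and 1.83% of B cells. The median depth of the groups before thinning was 15445, 9328.5, 11182 and 3894.5 UMIs for the neutrophil-labelled cells, monocytes, cluster 0 neutrophils and B cells.

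A second reference, built from sorted mouse RNA-seq samples, divided the cells. It called 1165 of the 2529 (46.1%) Granulocytes and 1204 (47.6%) Monocytes, while it called 96.4% of the monocytes of cluster 5 Monocytes and 1.29% Granulocytes. The 1165 cells held a median of 6822 CPM of Retnlg and 264 CPM of F13a1, and the 1204 cells 3826 and 533 CPM. S100a8 was at 87904 and 75063 CPM and Csf1r at 227 and 238 CPM, so that both subsets carried transcripts of both lineages.

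Without the cells that Scrublet marked, 148 to 357 neutrophil-labelled cells were left per library, and the secondary granule list had a median log2 ratio of 2.10 to monocytes, the mature neutrophil list 3.69 and the monocyte identity list -1.30. The primary granule list depended on which labels were used. With Granulocytes and Monocytes as the second reference called them in cluster 5, its median log2 ratio was -0.55 in place of 0.40.

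Some transcripts of other cell types had most of their UMIs in few of the neutrophil-labelled cells. Amelx, which encodes the enamel protein amelogenin of the tooth, had 14390 UMIs in mandible library 3, of which 99.0% lay in 1 cell. Cells with at least 1 UMI of Amelx numbered 28 of 230, 33 of 399 and 72 of 394 in the mandible libraries and 0, 1 and 1 in the femur libraries. In the edgeR test by site described below, enamel genes were called higher in the mandible in other groups too. These were 1 of 1 tested in the monocytes and 3 of 4 in the neutrophils of clusters 0 to 4, against 0.0968% and 0.0273% of all genes called. In the neutrophil-labelled cells 0 of 2 were called. Mcpt8, a protease of basophils, was found in 21 cells, and 10 cells held 94.3% of the UMIs of Hbb-bs, a globin chain. Of the B lineage list, Ebf1 had a median of 4.63 CPM, against 5914 CPM in B cells. Of the 2529 cells, 36 shared a barcode sequence with a cell of another library, and 0 shared it with another neutrophil-labelled cell of cluster 5.

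The first question between sites was how many such cells each marrow held. They made up 29.7%, 33.1% and 49.7% of cluster 5 in the femur libraries and 24.2%, 30.7% and 33.7% in the mandible libraries. The means of 37.5% ± 10.7 and 29.5% ± 4.87 (SD, n = 3 each) did not differ beyond their spread (2-sided exact permutation test, p = 0.5, adjusted p = 0.7). The difference of -7.99 percentage points was -1.90 without femur library 3, -5.31 without mandible library 1 and -11.9 without femur library 1, and with the labels of the second reference it was -1.75. As a share of all cells of the library they were 3.08%, 4.07% and 3.15% in the femur and 2.68%, 4.56% and 5.08% in the mandible (exact permutation p = 0.4, adjusted p = 0.7). The G1 share of 83.0% ± 4.39 and 83.3% ± 7.49 overlapped as well (SD, n = 3, exact permutation p = 0.9). With 3 libraries against 3, the smallest p this test can give is 0.1. The same test was run on 7 quantities, and the sites overlapped in each.

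The second question was which genes differed between mandibular-derived and femur-derived neutrophil-labelled cells. edgeR's quasi-likelihood test on UMIs summed per library called 7 of 11605 genes at an adjusted p under 0.05, a background of 0.0603%, with 6 higher in the mandible (0.0517%) and 1 lower (0.00862%). DESeq2 on the same sums called 39. Leaving out 1 library changed the edgeR count to 1 (without femur library 1, mandible library 2 or mandible library 3), 2 (femur library 3), 3 (femur library 2) or 8 (mandible library 1). At an unadjusted p under 0.05 there were 566 genes (4.88%), with 222 higher (1.91%) and 344 lower (2.96%). The sites did not overlap for 8.36% of the genes, with 3.34% higher and 5.02% lower. The same fit called 11 of 11364 genes in the monocytes (0.0968%, with 13.2% at an unadjusted p under 0.05) and 4 of 14655 in the neutrophils of clusters 0 to 4 (0.0273%, with 7.67% at an unadjusted p under 0.05). With only cells of at least 4000 UMIs, an alternative chosen after the data were seen that removes most of the shallow cells of femur library 1, 6 genes were called, 5 higher and 1 lower.

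Fgl2, a fibrinogen-like protein that myeloid cells make (chr5:21372642-21378374), was the gene that fell in the mandible. It was at 128, 109.8 and 84.6 CPM in the femur libraries and 47.3, 45.9 and 47.3 CPM in the mandible libraries (log2 mandible over femur -1.15, SE 0.14, edgeR adjusted p = 0.0274). All 3 mandible libraries lay below all 3 femur libraries, and the UMIs were spread over 1157 cells, the 10 highest of which held 6.198%. Within the finer cluster 8 the values were 178, 123 and 95.5 CPM in femur libraries and 66.7, 66.0 and 73.3 CPM in mandible libraries, and within 12 they were 117, 94.6 and 77.9 CPM in femur libraries and 30.5, 27.5 and 27.3 CPM in mandible libraries. In the monocytes of cluster 5, Fgl2 had a log2 ratio of -0.4 (edgeR adjusted p = 0.362), and in the neutrophils of clusters 0 to 4 it had -1.06 (edgeR adjusted p = 0.293). The difference between its log2 site effects in neutrophil-labelled cells and in monocytes was -0.72 (SE 0.15, limma adjusted p = 0.0483). The edgeR call of Fgl2 was lost when any single library was left out (edgeR adjusted p 0.0580 to 0.304) and without the cells Scrublet marked (edgeR adjusted p = 0.0651), with the log2 ratio between -1.22 and -1.04.

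Of the 6 genes called higher in the mandible, 5 had most of their UMIs in 10 cells. Itga6, an integrin chain (chr2:71745616-71858416), was at 10.3, 10.4 and 9.07 CPM in the femur libraries and 26.0, 28.1 and 31.5 CPM in the mandible libraries (log2 mandible over femur 1.56, SE 0.15, edgeR adjusted p = 0.0253). Cd226, an activating receptor of lymphocytes and platelets, was at 0.836, 0.722 and 0.450 CPM in the femur libraries and 6.13, 19.8 and 12.1 CPM in the mandible libraries (log2 mandible over femur 4.39, SE 0.52, edgeR adjusted p = 0.0274). The sites did not overlap for either gene. Of the 268 Cd226 UMIs, 87.3% lay in 10 of 2529 cells and 75.4% in the finer cluster 15, and for Itga6 10 cells held 40.9%. In the 3 mandible libraries the single highest cell held 88.0%, 91.7% and 59.4% of the Cd226 UMIs. For Itga6 the single highest cell held 51.9%, 55.6% and 48.8% in the mandible libraries and 16.2%, 6.94% and 2.48% in the femur libraries. Plxna4, a semaphorin receptor subunit, Dlg2, a synaptic scaffold, Nrgn, a calmodulin-binding protein, and Pard3b, a polarity protein, had log2 ratios of 4.31, 4.07, 3.73 and 3.24 (edgeR adjusted p = 0.0274, 0.0274, 0.0274 and 0.0489), with 90.9%, 88.4%, 88.8% and 83.0% of their UMIs in 10 cells. When only the finer clusters 8 and 12 were summed, an alternative chosen after the data were seen, no gene was called by edgeR and 554 had an unadjusted p under 0.05. Fgl2 then had a log2 ratio of -1.16 (edgeR adjusted p = 0.142) and Itga6 0.55 (edgeR adjusted p = 0.891).

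Il1b, the inflammatory cytokine interleukin 1 beta (chr2:129364570-129371139), did not pass the threshold in edgeR but did not overlap between sites. It was at 768, 418 and 384 CPM in the femur libraries and 184, 204 and 215 CPM in the mandible libraries (log2 mandible over femur -1.33, SE 0.24, edgeR adjusted p = 0.162). Every mandible library lay below every femur library, and the same held within the finer clusters 8 and 12. DESeq2 called it (DESeq2 adjusted p = 8.23e-06), as did edgeR without a filter on low counts (edgeR adjusted p = 1.84e-05). The monocytes held 72.5 ± 12.6 CPM on average in femur libraries and 35.1 ± 15.4 CPM in mandible libraries (SD, n = 3, log2 ratio -1.07, edgeR adjusted p = 0.136). Il1bos lies across the Il1b start on the other strand (chr2:129369897-129375748) and had a log2 ratio of -2.24 (edgeR adjusted p = 0.133). How strand was counted was not given in the sources used here, and whether reads of the pair were kept apart was not checked. Lysmd4 and Gm26535 were the next by p, with log2 ratios of -1.37 and -3.14 (edgeR adjusted p = 0.162 and 0.171).

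**Figure D5:**
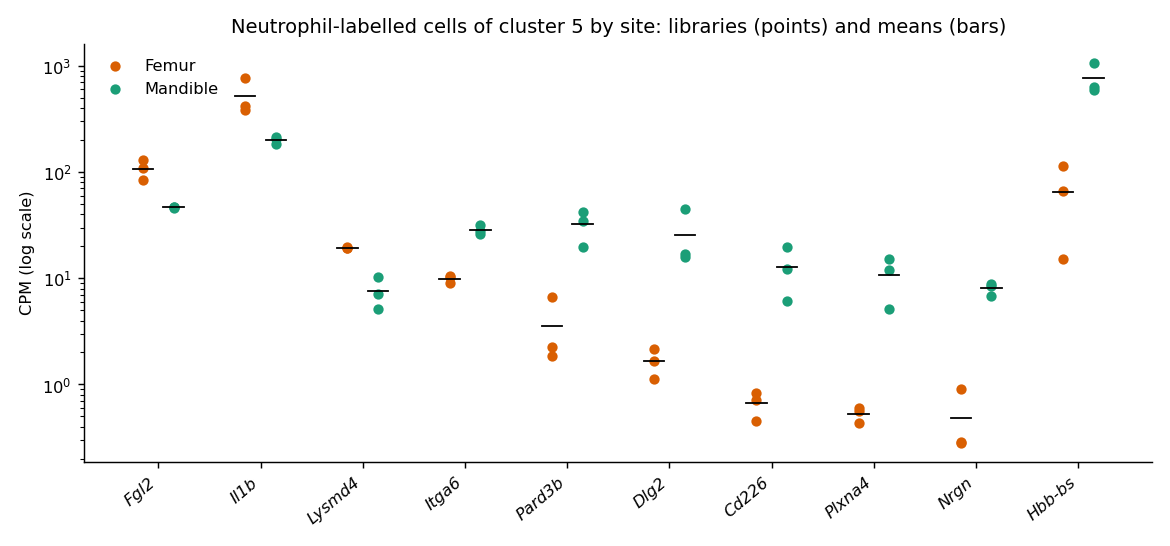
CPM on a log axis in the neutrophil-labelled cells of cluster 5 in the 3 femur (orange) and 3 mandible (green) libraries, with bars at the mean. The genes are those called by edgeR, with Il1b, Lysmd4 and Hbb-bs, which were not. For every gene drawn all libraries of 1 site lie above those of the other.

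In the main edgeR fit the lineage genes themselves showed no called difference between sites. S100a8 had log2 mandible over femur 0.17, SE 0.36, edgeR adjusted p = 1.00, and Csf1r had log2 mandible over femur -0.17, SE 0.18, edgeR adjusted p = 1.00. Of the 92 genes on the granule, mature neutrophil, monocyte identity and monocyte factor lists, edgeR called 0, while 4 higher and 4 lower had an unadjusted p under 0.05 and DESeq2 called Il1b alone. Over all genes tested edgeR called 0.0603%, so 0 calls among 92 genes says little about them. At an unadjusted p under 0.05, 1.91% of all genes were higher and 2.96% lower. The lists' median log2 ratios lay between -0.09 and 0.22, against -0.00073 over all genes tested. Egr1, an immediate early factor, was at 422, 336 and 91.0 CPM in the femur libraries and 649, 288 and 262 CPM in the mandible libraries (log2 mandible over femur 0.57, SE 0.48, edgeR adjusted p = 1.00), and the sites overlapped. Leaving out 1 library moved these log2 ratios to between 0.00081 and 0.57 for S100a8, -0.32 and -0.054 for Csf1r and 0.056 and 0.96 for Egr1. Junb, Nr4a1, Klf4, Ccl3, Ccr2, Ly6c2, Apoe and Tnfrsf11a had log2 ratios between -0.21 and 0.41, and none was called. Of 10 MHC class II genes 5 were lower in the mandible at an unadjusted p under 0.05, against 2.96% of all genes, and edgeR called 0 (median log2 ratio -0.52), while DESeq2 called H2-Aa, H2-Ab1 and H2-Eb1. In the monocytes 8 of the 10 were lower at an unadjusted p under 0.05, against 6.27% of all genes, and edgeR called 1 (median -1.01), while 10 of 11 macrophage genes were lower there and 1 was called (median -1.55). Of 13 macrophage genes 5 were also lower in the neutrophil-labelled cells at an unadjusted p under 0.05, with 0 called by edgeR or DESeq2 (median -0.67), and their part in the class II values was not tested. H2-Ab1, a class II beta chain, was at 323, 318 and 389 CPM in the femur libraries and 184, 186 and 141 CPM in the mandible libraries (log2 mandible over femur -0.99, SE 0.19, edgeR adjusted p = 0.214).

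The site effects of these cells and of the monocytes were compared within each library. limma called 107 of 10930 genes (0.979%) as differing in site effect, 32 with the higher effect in the neutrophil-labelled cells and 75 with the lower. Of the 20 G2M phase genes 14 were among the lower and of the 19 S phase genes 5. Among the higher were 4 of the 11 macrophage genes tested (median difference 0.83) and 3 of the 4 erythroid genes (median 2.61). By the deposited phase calls, 5.12%, 4.66% and 11.1% of femur monocytes and 9.02%, 26.9% and 16.9% of mandible monocytes were in G2M, against 5.29% to 9.48% and 6.09% to 13.03% of the neutrophil-labelled cells. Kif23, a kinesin of cell division, was at 48.4 ± 2.34 CPM on average in femur libraries and 44.0 ± 13.5 CPM in mandible libraries in the neutrophil-labelled cells and at 33.5 ± 4.57 CPM on average in femur libraries and 74.0 ± 21.6 CPM in mandible libraries in the monocytes (SD, n = 3), a difference of site effects of -1.22 (SE 0.11, limma adjusted p = 0.00243). Rrm2, a subunit of ribonucleotide reductase, and Cdca8, of the chromosomal passenger complex, differed by -1.49 (SE 0.18, limma adjusted p = 0.00689) and -1.05 (SE 0.12, limma adjusted p = 0.00689). For Rrm2 the monocytes held 19.4 ± 6.58 CPM on average in femur libraries and 60.9 ± 26.9 CPM in mandible libraries, without overlap, and the neutrophil-labelled cells 30.7 ± 5.60 CPM on average in femur libraries and 35.3 ± 19.6 CPM in mandible libraries, with overlap (SD, n = 3). C1qc, a complement subunit, was among the higher at 2.33 (SE 0.25, limma adjusted p = 0.00391), with 89.2 ± 35.97 CPM on average in femur libraries and 57.0 ± 18.2 CPM in mandible libraries in the neutrophil-labelled cells and 50.8 ± 9.99 CPM on average in femur libraries and 7.45 ± 4.90 CPM in mandible libraries in the monocytes. Hbb-bs was the other at 2.97 (SE 0.31, limma adjusted p = 0.00391), and 94.3% of its UMIs lay in 10 cells. With all cells, 1209 of the 10930 genes (11.1%) had an unadjusted p under 0.05 in limma, in either direction. Without the cells Scrublet marked, 9 genes were called in place of 107, and 0 of the 20 G2M genes (19 lower at an unadjusted p under 0.05 in limma), whose median difference was -1.10 against -1.20 before. The S phase list then had 0 calls in limma as well (16 of 19 lower at an unadjusted p under 0.05, the number before), with a median difference of -0.99 against -0.88. The share of all genes at an unadjusted p under 0.05 without the marked cells is not given here, so these counts stand without a background. Of the macrophage and erythroid genes 2 each were still called by limma, with median differences of 0.87 and 3.08. Leaving out mandible library 2 left 16 calls, and leaving out femur library 1 gave 205.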

How the data were processed

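Marrow cells bearing CD11b from the femur and mandible of mice were measured by 3' single-cell RNA sequencing in 6 libraries. The authors aligned reads to mm10 with Cell Ranger (7.0.1 in the submitters' processing notes, 7.1.0 in the matrix headers) and deposited raw UMI counts per gene and barcode. Per the study's methods, cells had to have 600 to 6000 genes and at most 20 percent mitochondrial counts (the authors deposited the percent per cell), and the authors integrated the libraries with Seurat in R 4.1.0. The deposited metadata gave clusters, phase calls and SingleR labels from the ImmGen and mouse RNA-seq references. Of 8184 to 23233 barcodes per library, 7763 to 22797 were in the metadata and were used here, with 82962160 to 244946998 UMIs. A deposited table of the authors' own cluster marker tests, with p-values and fold changes, was not used. No column of other samples was present (0).

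Cells were selected by cluster number and ImmGen label. Counts were summed per library and group, and CPM were computed over all genes. Log2 ratios between groups used a pseudocount of 1 CPM and genes with a mean of at least 5 CPM in either group. The sites were compared with edgeR's quasi-likelihood test (edgeR 4.0.16, TMM, filterByExpr, Benjamini-Hochberg adjustment over all genes tested), the difference of site effects with limma 3.58.1 (prior count 2), and shares with 2-sided exact permutation tests (scipy 1.17.1). Fold changes of CPM at low counts depend on the prior count. The edgeR and limma steps were tested on simulated data with 200 changed genes. Intervals and depths cover counting error only, and p-values measure the spread between libraries.

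The sources used here did not say that doublets were removed. Scrublet in scanpy 1.11.5 was run per library on the cells kept. Its automatic threshold marked under 0.5% of cells in femur library 1, mandible library 2 and mandible library 3, where the 92nd percentile of the score was used in its place. Cells were thinned to 2000 UMIs for shares of cells with a UMI. Promoter sequences were taken from RefSeq on GRCm38.p6.

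The genes named were the calprotectin genes and Csf1r, genes of fixed lists (the most abundant members, those that passed and those set against each other), the genes the study examined in cluster 5, the 10 highest and 10 lowest ratios to monocytes at 50 CPM or more with 1 sign in 6 of 6 libraries, genes called by site or else the 5 smallest p in a direction, and the 5 smallest p of the difference of site effects. Genes named for lying above both lineages, for likeness to other cell types and for lying in few cells were chosen after their values were seen. The members, lists and rules were chosen with earlier results of these data known. The alternatives were DESeq2 1.42.0, other size factors, no filter on low counts, replicate blocks, other labels, doublet, phase and depth selections, other pseudocounts and prior counts, and leaving out each library. Selections by UMIs and by finer cluster were chosen after the data were seen.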

Additional observations from a re-analysis of the deposited data

Results flagged for a closer look

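In the comparison of site effects between the neutrophil-labelled cells and the monocytes of cluster 5, the effect differed for 107 genes (limma, adjusted over 10930 genes). Among the named genes with a lower effect of the mandible in the neutrophil-labelled cells were Kif23 with a log2 difference of -1.22, Cdca8 with -1.05, Rrm2 with -1.49 and Fgl2 with -0.72. Those with a higher effect were Hbb-bs with 2.97, C1qc with 2.33, Apoe with 0.66 and Pard3b with 2.89. Each was past the threshold in the test of the difference itself. Of these 8, C1qc and Hbb-bs kept the call in every alternative run, and the other 6 lost it in at least 1. The calls of Kif23, Cdca8 and Rrm2 were lost without doublets (limma adjusted p = 0.0554, 0.0542 and 0.0542), where their log2 differences were -1.10, -1.23 and -1.64, and that of Pard3b without mandible library 2 (limma adjusted p = 0.0621). Apoe lost it without doublets, without a filter and without femur library 2 or 3 or mandible library 2 or 3 (highest limma adjusted p = 0.307). Fgl2 lost it with a prior count of 0.5, without doublets, without a filter and without any 1 library (highest limma adjusted p = 0.169). Apoe, whose sites overlapped in the neutrophil-labelled cells, is the lipid carrier described among the monocyte genes. For Hbb-bs and Pard3b, 10 of the neutrophil-labelled cells held 94.3% and 83.0% of the UMIs. A higher or lower effect gives no direction within either group. The mean of C1qc was lower in the mandible in both groups, with the smaller fall in the neutrophil-labelled cells. The means of Kif23 and Rrm2 differed between sites mainly in the monocytes, where they were higher in the mandible.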

How the results depend on the processing

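Whether the libraries are paired was not settled, as correlations among 3 libraries per site cannot decide it. For the 3 pairs by sample title, deviations from the site means correlated across genes at 0.19, -0.15 and 0.12 in the neutrophil-labelled cells. In the monocytes these pairs had 0.20, -0.28 and 0.12. The numbers in the library names, whose meaning was not given, left 2 pairs. These had 0.17 and 0.37 in the neutrophil-labelled cells and 0.34 and 0.39 in the monocytes. With a replicate block by the title number, edgeR called 26 genes by site in the neutrophil-labelled cells and 83 in the monocytes, in place of 7 and 11. With a replicate block by the library number in 4 libraries it called 6 and 814, and limma called 300 differences of site effects in place of 107. Under this block Ccr2 and Tnfrsf11a had log2 ratios of -0.044 and -0.055.

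In the neutrophil-labelled cells DESeq2 called 39 genes by site, no filter on low counts 104 and G1 cells alone 19. The second reference's Granulocytes gave 0 (418 at an unadjusted p under 0.05 in edgeR), the finer clusters 8 and 12 gave 0 (554) and the finer cluster 8 gave 0 (479). In the monocytes DESeq2 called 337, no filter 657, no doublets 214 and G1 cells 18. The difference of site effects gave 46 calls with no filter and 9 without doublets. Leaving out 1 library gave 1 to 8 calls in the neutrophil-labelled cells, 0 to 578 in the monocytes (0 without femur library 1 or 2, 578 without mandible library 1) and 16 to 205 differences. The causes were not tested.

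The median log2 ratio to monocytes of the primary granule list was 1.03 in G1 cells and -0.55 with the second reference, that of the secondary list 2.22 in G1 cells, 2.29 after thinning and 1.15 with the second reference, and that of the mature neutrophil list 2.86 with a pseudocount of 10 CPM and 2.00 with the second reference. Against cluster 0, the pseudocount of 10 CPM gave 0.25 for the mature and 3.54 for the monocyte identity list, and no doublets gave 1.66 for the primary, 0.49 for the mature and 5.31 for the monocyte identity list. Against cluster 4, the pseudocount gave -1.47, 1.27 and 3.48 for the primary, mature and monocyte identity lists, and no doublets 2.05 and 5.37 for the last pair. After thinning, S100a8 was found in 99.9%, S100a9 in 100% and Csf1r in 36.7% of the cells.

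Without each library in turn, the site difference was -3.62 to 3.82 percentage points for G1 cells, and the log2 site ratio was -0.033 to 0.47 for S100a9, -0.30 to 0.31 for Nr4a1, -0.053 to 0.36 for Klf4, -0.061 to 0.36 for Ccr2, -0.55 to 0.057 for Apoe and -0.11 to 0.16 for Tnfrsf11a. Nr4a1 had -0.0051 without doublets and Ccr2 -0.11 in the finer cluster 8. None of these was called in any alternative.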
